A study of Mus musculus with 22 samples.

Results

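Islet tumours were set against angiogenic islets in RIP1-TAG2 (RT2) mice, a model of the pancreatic neuroendocrine tumour (PanNET). The comparison took the 5 arrays labelled Islet Tumor and the 3 labelled Angiogenic Islet, 8 of the 22 arrays of the series, and covered 19938 genes. Each sample was hybridised to 1 Affymetrix Mouse Gene ST array, which reads a gene as a log2 intensity, so a difference of 1 is a doubling. Levels of different genes are not comparable on this scale. The angiogenic arrays are titled AngiogenicI-93, Angiogenic2006 and Angiogenic2007, the tumour arrays I-9811-tumor, II-649-tumor, II-6415-tumor, III-8017-tumor and III-8024-tumor, and values are given in that order throughout. Both groups carry the same RIP1-TAG2 transgene, whose insulin promoter, taken from the rat, makes beta cells express an oncogenic viral antigen. The presence of the transgene is therefore no difference between them, and the level of the antigen was not tested. All 3 hyperplastic and 3 normal islet samples, which are set beside some results, carry that genotype in their labels as well. No age, sex or treatment of the mice, pooling of islets or number of animals per sample was found in the labels. The p-values therefore measure the spread between samples within groups, which may be technical. That spread was pooled over all 22 arrays of the series, so it can differ from the spread of the 8 compared arrays.

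RT2 beta cells begin to divide in otherwise ordinary islets, and some of these hyperplastic islets later acquire new vessels and become red and leaky, the step called the angiogenic switch. A fraction of the angiogenic islets goes on to form solid, encapsulated and then invasive tumours. The islet also holds alpha, delta and PP cells, which make glucagon, somatostatin and pancreatic polypeptide, together with endothelium, pericytes, fibroblasts and immune cells, and the exocrine pancreas surrounds it. RNA came from whole tissue, so for every gene below fewer cells of a type and less RNA per cell cannot be told apart.

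Differences towards lower levels in the tumours prevailed, both in number and in size. By limma's moderated test, with Benjamini-Hochberg adjustment over all genes, 1903 of 19938 genes (9.54%) had an adjusted p below 0.05, and these are the genes called changed. Of these, 617 (3.09% of all genes) rose and 1286 (6.45%) fell from angiogenic islets to tumours. At least 1 log2 separated the groups for 11 of the genes that rose (0.0552%) and for 232 of those that fell (1.16%). The median change over all genes was 0.05 log2. When each array was instead centred on its own median, 1176 genes were higher and 1097 lower, so the excess of lower calls depended on the scaling. The array AngiogenicI-93 weighed most on the counts. Without it 732 genes were called, 169 higher and 563 lower, and 680 of the 1903 kept their call. Without Angiogenic2006 1025 were called. Across genes, the 3 angiogenic arrays had correlations of 0.9836 to 0.9914 with each other and the 5 tumours 0.9802 to 0.9888, against 0.9667 to 0.9809 between the groups.

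**Figure D1:**
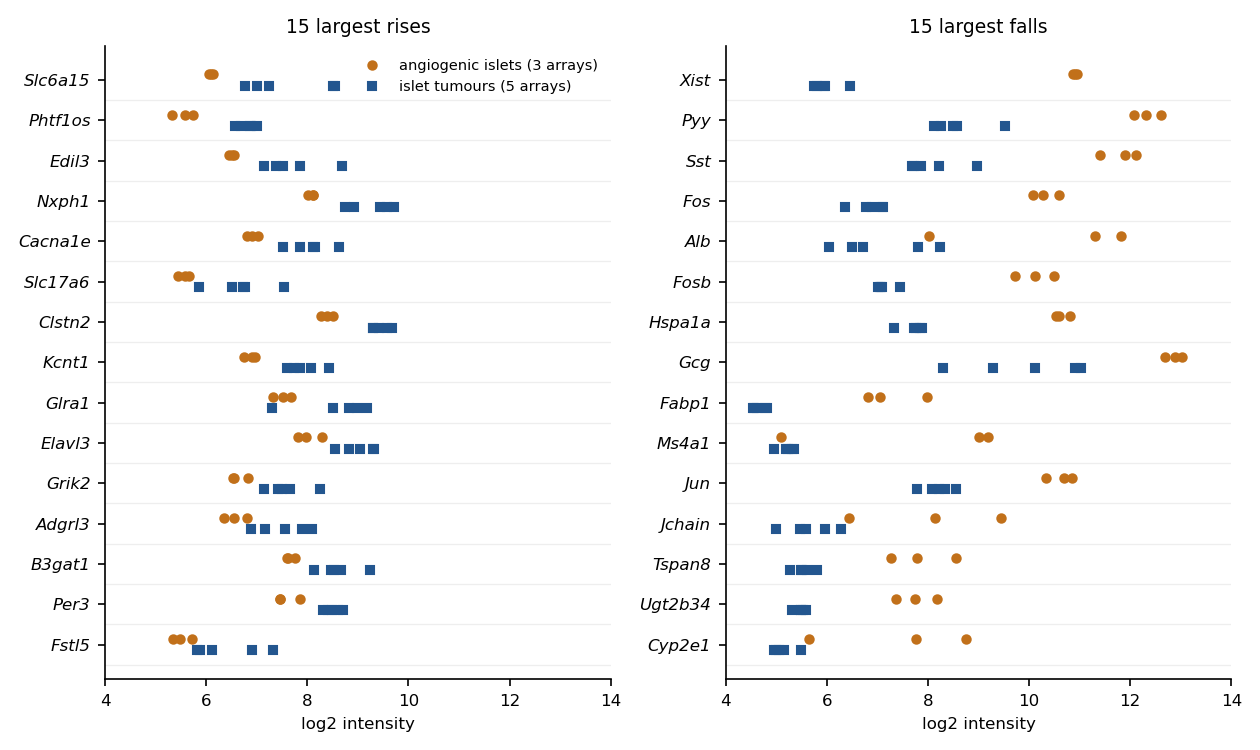
Log2 intensity (x axis) on each of the 3 angiogenic islet arrays (circles) and 5 islet tumour arrays (squares) for the 15 genes with the largest rises (left) and the 15 with the largest falls (right). The rises run from 0.89 (Fstl5) to 1.52 (Slc6a15), while the falls reach -4.92 (Xist), and Alb, Cyp2e1, Ms4a1 and Jchain have 1 angiogenic array near the tumours.

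The single largest change was in Xist, the non-coding RNA that coats the inactive X chromosome and is made in cells with a silenced second X. It read 10.95, 10.90 and 10.87 in the angiogenic islets and 5.94, 5.81, 5.74, 5.97 and 6.46 in the tumours. The groups were far apart, and the change was -4.92 ± 0.18 log2 (SE, adjusted p = 3.5e-13). Of 8 measured sex chromosome genes 3 fell, Xist with the histone demethylase genes Kdm6a (-0.49 ± 0.08, adjusted p = 0.000731) and Kdm5c (-0.28 ± 0.09, adjusted p = 0.0451), both of which are known to escape X silencing. The call of Kdm5c ended when any of 7 of the 8 arrays was left out, with adjusted p from 0.0504 (without II-6415-tumor) to 0.219 (without Angiogenic2007). The Y-linked genes were not called, and 1 tumour differed from the rest. Eif2s3y, a Y-linked translation factor gene, read 8.16, 7.76 and 8.16 in the angiogenic islets and 9.60, 9.56, 9.37, 7.77 and 9.60 in the tumours (adjusted p = 0.263). The Y-linked demethylase gene Kdm5d read 6.88 in III-8017-tumor and 8.03 to 8.27 in the other tumours, against 7.22 to 7.56 in the angiogenic islets, and Uty behaved likewise, with 7.34 against 8.62 to 8.98 and 7.80 to 8.14. So 4 tumours read above all angiogenic islets for each of these Y-linked genes, and III-8017-tumor read low for both Xist and the Y-linked genes. Xist averaged 11.14 ± 0.32 (SD, n = 3) in normal and 10.87 ± 0.20 (n = 3) in hyperplastic islets. The sex of the animals and the tissue stage cannot be told apart for any gene in this comparison.

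Hormones of the non-beta endocrine cells made up the next block of large differences. Of 12 measured genes of these cells, 6 fell and 0 rose, with a median change of -0.50 log2 against 0.05 over all genes. Somatostatin (Sst), the delta cell hormone that restrains insulin and glucagon release, read 11.89, 11.40 and 12.12 in angiogenic islets and 7.68, 7.72, 7.87, 8.22 and 8.97 in tumours. That is a change of -3.71 ± 0.22 (13.1-fold lower, adjusted p = 5.01e-10), and even the highest tumour, III-8024-tumor, lay well below the lowest islet sample. Peptide YY (Pyy), a gut and islet peptide of the same family as pancreatic polypeptide, read 12.31, 12.08 and 12.61 against 8.25, 8.57, 8.49, 8.11 and 9.53. It fell by 3.74 ± 0.24 (13.4-fold, adjusted p = 2.29e-09), again with its highest tumour value in III-8024-tumor. Glucagon (Gcg), the alpha cell hormone that raises blood glucose, read 12.88, 12.68 and 13.02 against 10.11, 8.30, 9.29, 11.03 and 10.90, and fell by 2.93 ± 0.45 (adjusted p = 0.000307). The tumours were far less alike for Gcg than for Sst, spanning 8.30 in II-649-tumor to 11.03 in III-8017-tumor, yet none reached the islets.

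Pancreatic polypeptide (Ppy) differed from these, because 1 tumour kept an islet level of it. It read 12.25, 11.37 and 12.53 in angiogenic islets and 8.97, 10.46, 12.27, 8.33 and 9.96 in tumours, so that II-6415-tumor overlapped the islets. Its change of -2.05 ± 0.51 (adjusted p = 0.0142) was not called without AngiogenicI-93 (0.0812) or without Angiogenic2007 (0.0606). Transthyretin (Ttr), a thyroxine and retinol carrier abundant in alpha cells, fell by 0.78 ± 0.14 (adjusted p = 0.00166, but 0.0725 with the title code as a block and 0.0548 on the 8 compared arrays alone). Hhex, the transcription factor needed for delta cells, fell by 0.72 ± 0.16 (adjusted p = 0.00576), and its call was lost without AngiogenicI-93 (0.0835). Ghrelin (Ghrl), the hormone of epsilon cells, differed by -0.02 ± 0.10 (adjusted p = 0.937). The members of the list not named here were not called either, with changes from -0.27 to 0.09. The series also lets the tumours be set beside earlier stages, with the same tumour arrays in each comparison. Sst averaged 13.07 ± 0.16 in normal, 12.52 ± 0.08 in hyperplastic, 11.80 ± 0.37 in angiogenic islets (SD, n = 3 each) and 8.09 ± 0.54 in tumours (n = 5).

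The 250 bases before the Sst start are shown because they hold the site through which cyclic AMP was first tied to this gene, the cyclic AMP response element (CRE), here in capitals. They are from RefSeq, build GRCm38.p6, chr16:23890845-23891094, minus strand, read 5′ to 3′ in the direction of the gene.
Sst: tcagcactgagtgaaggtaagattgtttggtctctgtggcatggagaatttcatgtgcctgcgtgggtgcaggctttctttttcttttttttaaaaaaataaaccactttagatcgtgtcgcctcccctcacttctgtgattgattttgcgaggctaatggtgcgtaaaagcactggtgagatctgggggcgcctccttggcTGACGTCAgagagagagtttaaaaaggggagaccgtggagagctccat
The 8 letters TGACGTCA lie 48 to 41 bases before the start. They were searched on both strands and read the same on each. Of 27025 genes with a RefSeq promoter in the table used, 478 (1.77%) hold them in these 250 bases, and a match is a description, not a test of binding.

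Beta cell genes were called about as often as genes at large. Of 21 measured genes of beta cell identity 1 rose and 1 fell, against 3.09% and 6.45% of all genes. The median change was -0.14, and 19 were not called (3 lower without III-8017-tumor, and 2 lower and 0 higher with the title code as a block). Insulin 2 (Ins2) read 11.09, 11.22 and 11.23 in angiogenic islets and 11.06, 11.05, 11.04, 10.98 and 10.93 in tumours (-0.17 ± 0.10, adjusted p = 0.293). Islet amyloid polypeptide (Iapp), released with insulin, differed by -0.11 ± 0.15, the beta cell factor gene Pdx1 by 0.11 ± 0.16 and the granule zinc carrier gene Slc30a8 by -0.13 ± 0.10, none of them called.

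The gene of this list that fell was Slc2a2, which codes for GLUT2, the low-affinity glucose carrier of rodent beta cells. It read 11.51, 11.04 and 11.57 in angiogenic islets and 8.63, 8.85, 8.71, 10.52 and 9.87 in tumours, a change of -2.06 ± 0.33 (4.16-fold lower, adjusted p = 0.000489). The tumours split into 3 near 8.7 and the pair III-8017-tumor and III-8024-tumor at 9.87 or more, all below the islets. Its mean was 12.35 ± 0.18 in normal and 11.87 ± 0.09 in hyperplastic islets (SD, n = 3 each). Rfx6, a transcription factor of all islet endocrine cells, rose by 0.52 ± 0.13 (adjusted p = 0.0178), a call lost without AngiogenicI-93 (0.0902) or Angiogenic2006 (0.109). Nkx6-1, which keeps beta cells from an alpha cell fate, read 9.97, 9.72 and 10.13 against 9.42, 9.17, 8.97, 9.68 and 9.30 (-0.63 ± 0.20, adjusted p = 0.0529, 0.028 without III-8017-tumor and 0.043 with the title code as a block). Mafa, an activator of the insulin gene, and the GLP1 receptor gene Glp1r differed by -0.24 ± 0.18 and -0.04 ± 0.26.

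Granule and release genes had a median change of 0.03. Of 20 measured genes 2 rose and 1 fell, against 3.09% and 6.45% of all genes. Chromogranin A (Chga), the granule protein used as a marker of neuroendocrine tumours, read 12.84, 12.77 and 12.93 against 12.46, 12.78, 12.68, 12.63 and 12.57 (-0.22 ± 0.12, adjusted p = 0.239). Chromogranin B (Chgb) and synaptophysin (Syp) differed by -0.12 ± 0.12 and 0.07 ± 0.11. The fusion protein genes Snap25 (0.42 ± 0.11, adjusted p = 0.016) and Stx1a (0.25 ± 0.07, adjusted p = 0.0238) were the members that rose, and the prohormone carboxypeptidase gene Cpe (-0.29 ± 0.09, adjusted p = 0.0443) the one that fell. None of these calls held without AngiogenicI-93 (0.106, 0.103 and 0.127) or without Angiogenic2006 (0.0608, 0.0603 and 0.0914). Those of Stx1a and Cpe also ended without Angiogenic2007 (0.0757 and 0.15) and without III-8024-tumor (0.0502 and 0.0914), and that of Cpe without II-649-tumor (0.0892) or II-6415-tumor (0.0759). The prohormone convertase gene Pcsk1 varied among tumours from 10.38 to 11.25 and was not called (-0.39 ± 0.40). Against normal islets Snap25 in tumours differed by -0.08 and Stx1a by 0.33.

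The 15 largest rises ran from 0.89 to 1.52 log2. Of these 15, only Adgrl3 averaged lower in tumours than in normal islets (-0.37). Clstn2, which codes for a calsyntenin of the postsynaptic membrane, read 8.27, 8.38 and 8.50 in angiogenic islets and 9.29, 9.58, 9.42, 9.67 and 9.30 in tumours (1.07 ± 0.14, adjusted p = 5.24e-05). Elavl3, an RNA-binding protein of neurons, read 7.82, 8.29 and 7.97 against 9.29, 8.83, 8.54, 9.05 and 9.31 (0.98 ± 0.14, adjusted p = 0.000147). Kcnt1, a sodium-activated potassium channel, read 6.74, 6.96 and 6.91 against 8.42, 7.86, 7.59, 8.08 and 7.74 (1.07 ± 0.12, adjusted p = 1.41e-05). In each of these genes every tumour lay above every islet sample, which was so for 1623 genes (8.14%) in all.

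Similar rises were seen in Nxph1 (1.20 ± 0.22), a ligand of neurexins, in Grik2 (0.96 ± 0.18), a kainate receptor subunit, and in B3gat1 (0.94 ± 0.17), which makes the HNK-1 sugar of neural cells. Cacna1e, the pore of the R-type calcium channel, rose by 1.14 ± 0.23 and Edil3, a secreted integrin ligand, by 1.22 ± 0.27, though with the title code as a block Edil3 differed by 0.69 (adjusted p = 0.163). Phtf1os, a non-coding antisense transcript of Phtf1, read 5.57, 5.33 and 5.74 against 6.57, 6.86, 6.88, 6.68 and 7.01 and rose by 1.25 ± 0.14. Whether its probes also take up RNA of the partner gene was not tested. Per3, a clock gene, read 7.46, 7.46 and 7.85 against 8.41, 8.61, 8.49, 8.70 and 8.30 (0.91 ± 0.11, adjusted p = 2.2e-05). The other 5 of the 15 largest rises rested on few arrays. Slc6a15 (1.52 ± 0.45), a neutral amino acid carrier of brain, read 8.50 and 8.55 in I-9811-tumor and III-8017-tumor and 6.77 to 7.25 in the others. Slc17a6, the vesicular glutamate carrier (1.12 ± 0.28), Glra1, a glycine receptor subunit (1.06 ± 0.31), Adgrl3, a latrophilin (0.95 ± 0.25), and Fstl5 (0.89 ± 0.28) were uneven too, and for Glra1 III-8017-tumor, at 7.30, lay below all islet samples. Without AngiogenicI-93 the adjusted p of these genes was 0.139 for Slc6a15, 0.0852 for Slc17a6, 0.171 for Glra1, 0.124 for Adgrl3 and 0.202 for Fstl5, and without Angiogenic2006 0.0974, 0.054, 0.0963, 0.0667 and 0.0782. Leaving out I-9811-tumor or III-8017-tumor also ended the call of Slc6a15 (0.0877 and 0.0717), as did leaving out Angiogenic2007 (0.0881). That of Glra1 ended without any array but III-8017-tumor, and that of Fstl5 also without Angiogenic2007 (0.105), II-649-tumor (0.0941) or III-8017-tumor (0.0833).

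As a class, neuronal genes did not move one way. Of 18 measured neuronal genes 3 rose and 2 fell, with a median of 0.06, and of 14 GABA and glutamate receptor and carrier genes 3 rose and 0 fell, with a median of 0.16. Over all genes 3.09% rose and 6.45% fell. Without AngiogenicI-93 1 neuronal gene was higher and 0 lower, without Angiogenic2007 1 was lower, and of the receptor and carrier genes 1 was higher without AngiogenicI-93 or Angiogenic2006. Nrcam, an adhesion molecule of axons, rose by 0.74 ± 0.16 (adjusted p = 0.00652, but 0.0623 without AngiogenicI-93). The voltage-gated sodium channel gene Scn8a read 7.61, 7.57 and 7.88 against 8.07, 8.03, 8.28, 8.06 and 8.10 (0.42 ± 0.08, adjusted p = 0.00177). Against normal islets Nrcam differed by 1.30 and Scn8a by -0.01. The neuronal members that fell were Stmn2, a tubulin-binding protein of growth cones (-1.03 ± 0.23), and Prph, a filament protein of peripheral nerve (-0.57 ± 0.15), and neither call held without AngiogenicI-93 (0.0612 and 0.1), nor that of Prph without Angiogenic2007 (0.0771). The nerve peptide genes Vip (-1.12 ± 0.24, adjusted p = 0.00551) and Tac1 (-0.69 ± 0.18, adjusted p = 0.0165) fell too. For both, I-9811-tumor was the highest tumour and within the islets' range, at 6.86 for Vip, and the call of Tac1 ended without AngiogenicI-93 (0.0713) or Angiogenic2007 (0.105). With the title code as a block Vip differed by -0.47 (adjusted p = 0.193) and Tac1 by -0.35 (0.295), and on the 8 compared arrays alone neither was called (0.0536 and 0.115). Schwann cell genes did not move with them: 0 of 7 were called, and the glial factor gene Sox10 differed by 0.00 ± 0.08. Rest, the repressor that keeps neuronal genes silent elsewhere, read 7.58, 7.33 and 6.81 against 6.65, 6.65, 6.73, 6.50 and 6.44 (-0.65 ± 0.16, adjusted p = 0.0116), a call lost without AngiogenicI-93 (0.134) or Angiogenic2006 (0.0603). It was at the tumour level in hyperplastic islets, against which the change was -0.01.

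Most early response genes were lower in the tumours. Immediate-early genes are transcribed within minutes of a growth factor, depolarisation or tissue disturbance, from RNA that is short-lived. Of 23 measured, 17 fell and 0 rose, with a median of -0.95. The list averaged 8.86 to 8.96 in the angiogenic islets and 7.47 to 7.86 in the tumours. Fos read 10.28, 10.08 and 10.60 against 7.11, 7.10, 6.35, 6.89 and 6.78, a change of -3.48 ± 0.20 (11.1-fold lower, adjusted p = 3.97e-10). Fosb, its close relative, read 10.12, 9.72 and 10.50 against 7.45, 7.10, 7.06, 7.01 and 7.08 (-2.97 ± 0.17). Jun, which pairs with Fos in the AP-1 factor, read 10.70, 10.33 and 10.85 against 8.34, 8.07, 8.21, 8.55 and 7.78 (-2.44 ± 0.16). No tumour came within 1 log2 of an islet sample for any of these genes.

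Other called members were transcription and decay factors. The zinc finger factor gene Egr1 fell by 1.88 ± 0.14, the stress factor gene Atf3 by 1.17 ± 0.14, the mRNA decay factor gene Zfp36 by 1.79 ± 0.14 and the growth arrest gene Btg2 by 1.70 ± 0.13. Dusp1, a phosphatase that ends MAP kinase signals, read 11.23, 10.98 and 11.29 against 8.96, 9.15, 8.43, 9.21 and 8.89 (-2.24 ± 0.26, adjusted p = 1.27e-05). Between 16 and 18 members were lower whichever array was left out. Against hyperplastic islets, where 6.96% of all genes were called and 4.23% were lower in tumours, 16 of the 23 fell, and Fos averaged 10.52 ± 0.23 in normal and 10.83 ± 0.26 in hyperplastic islets (SD, n = 3 each). All 3 islet groups read high and the tumours low.

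Heat shock chaperones, which refold proteins after heat or chemical stress, differed in the same way. Of 12 measured genes 9 fell and 0 rose, with a median of -0.49. Hspa1a, the inducible HSP70, read 10.54, 10.81 and 10.60 in angiogenic islets and 7.88, 7.33, 7.84, 7.76 and 7.73 in tumours, a change of -2.94 ± 0.20 (7.67-fold lower, adjusted p = 4.38e-09). Hspb1, a small chaperone of actin, read 8.92, 8.87 and 8.97 against 7.17, 7.22, 7.68, 7.29 and 6.97 (-1.65 ± 0.15, adjusted p = 4.51e-07). The HSP70 partner genes Dnajb1 (-1.25 ± 0.15) and Dnaja1 (-0.48 ± 0.09) and the exchange factor gene Hsph1 (-1.13 ± 0.24) fell as well. For Hsph1 the tumours ranged from 9.17 to 10.32, all below the islets' 10.64 to 10.89.

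The promoters of 1 immediate-early gene and 2 heat shock genes are shown, since most members of these lists fell. Capitals mark the CRE letters TGACGTCA in Dusp1 (chr17:26508473-26508722, minus strand). In Hspb1 (chr5:135887669-135887918, plus strand) and Hspa1a (chr17:34972157-34972406, minus strand) they mark the fixed letters of GAANNTTC, the string searched for as the heat shock element. All are the 250 bases before the start in RefSeq, GRCm38.p6, and both motifs read the same on both strands.
Dusp1: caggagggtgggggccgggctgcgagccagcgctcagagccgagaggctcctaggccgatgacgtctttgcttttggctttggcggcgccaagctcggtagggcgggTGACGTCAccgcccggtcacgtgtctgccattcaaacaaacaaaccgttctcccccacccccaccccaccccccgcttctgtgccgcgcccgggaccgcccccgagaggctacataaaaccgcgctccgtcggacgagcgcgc
Hspb1: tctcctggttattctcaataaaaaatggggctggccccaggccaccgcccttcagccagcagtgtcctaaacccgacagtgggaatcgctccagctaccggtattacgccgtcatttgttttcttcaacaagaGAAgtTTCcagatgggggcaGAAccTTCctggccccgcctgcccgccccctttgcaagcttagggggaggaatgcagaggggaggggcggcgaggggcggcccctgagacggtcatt
Hspa1a: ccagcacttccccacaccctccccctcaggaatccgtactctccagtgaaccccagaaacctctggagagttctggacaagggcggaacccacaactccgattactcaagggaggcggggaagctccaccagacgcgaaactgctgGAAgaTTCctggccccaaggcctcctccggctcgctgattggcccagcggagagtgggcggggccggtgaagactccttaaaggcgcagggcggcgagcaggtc
The string GAANNTTC was found before 5 of the 10 heat shock genes with a promoter in the table (50%), against 2088 of 27025 genes (7.73%). Hspb1 holds 2 copies, at 117 to 110 and 97 to 90 bases before the start, and Hspa1a 1, at 104 to 97. The CRE was found before 2 of 18 immediate-early genes (11.1%), Dusp1 and Btg2. All 7 of these genes were called lower, as were most members of both lists without a match. Jun, an immediate-early gene, also holds GAANNTTC.

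Genes induced by NF-kappaB and inflammatory signals fell with the early response genes. Of 18 measured genes 12 fell and 0 rose, with a median of -0.48, and with the title code as a block 7 were called. Nfkbia, the inhibitor that NF-kappaB itself induces, read 9.88, 9.62 and 9.64 against 8.67, 8.87, 8.83, 8.85 and 8.71 (-0.93 ± 0.16, adjusted p = 0.00104). Ptgs2, the inducible cyclooxygenase, read 7.05, 7.67 and 7.17 against 6.22, 6.04, 6.10, 6.64 and 6.15 (-1.07 ± 0.16, adjusted p = 0.000203). The groups did not overlap for either gene. The ubiquitin-editing enzyme gene Tnfaip3 (-0.93 ± 0.19), the apoptosis inhibitor gene Birc3 (-0.95 ± 0.15), the leukocyte adhesion gene Icam1 (-0.59 ± 0.11) and Il6 (-0.85 ± 0.15) fell likewise, Il6 without a call under the title code block (-0.48, adjusted p = 0.101). Il6 was near the array's lower end, at 4.31 to 5.07 in angiogenic islets and 3.59 to 4.04 in tumours. Of the neutrophil chemokines, Cxcl1 differed by -0.18 ± 0.09 and was not called. Cxcl2 fell by 0.42 ± 0.13 (adjusted p = 0.0482), a call that ended without any of 6 arrays, with adjusted p from 0.0701 (without III-8017-tumor) to 0.203 (without Angiogenic2006). Ptgs2 and Icam1 in tumours were close to hyperplastic islets, with differences of -0.07 and -0.09, whereas Nfkbia was lower than there too (-1.07).

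The unfolded protein response split in opposite directions. This response adjusts the folding capacity of the endoplasmic reticulum, on which insulin-making cells rely heavily. Its ATF6 and XBP1 arms raise chaperones, and its PERK arm acts through ATF4 on amino acid and cell death genes. Of 20 measured genes, 8 fell and 2 rose, with a median of -0.22. All 8 that fell serve folding, degradation or survival in the endoplasmic reticulum, and both that rose, Ddit3 and Trib3, belong to the ATF4 arm. The chaperone gene Hspa5, also called BiP, read 12.32, 12.16 and 12.32 in angiogenic islets and 11.88, 11.66, 11.90, 12.01 and 11.76 in tumours (-0.43 ± 0.10, adjusted p = 0.0101). Edem1, which sends misfolded glycoproteins to degradation, read 10.23, 10.15 and 10.04 against 9.32, 9.26, 9.48, 9.88 and 9.38 (-0.67 ± 0.14, adjusted p = 0.00314). Manf, a secreted survival factor, fell by 0.38 ± 0.08 (adjusted p = 0.00312, but 0.113 with the title code as a block and 0.0627 on the 8 compared arrays alone), and the groups did not overlap for any of these.

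The disulfide isomerase genes Pdia4 (-0.47 ± 0.11) and Pdia6 (-0.43 ± 0.13) and the co-chaperone genes Dnajb9 (-0.60 ± 0.14), Dnajc3 (-0.51 ± 0.15) and Sdf2l1 (-0.59 ± 0.18) complete the group that fell. Ddit3, the death-linked factor CHOP, read 7.92, 7.98 and 8.03 against 8.39, 8.73, 8.44, 8.49 and 8.10 (0.45 ± 0.12, adjusted p = 0.0183). Trib3, a pseudokinase that CHOP and ATF4 induce, read 7.58, 7.65 and 7.58 against 7.81, 8.93, 8.02, 8.62 and 7.68 (0.61 ± 0.19, adjusted p = 0.0435). Every tumour lay above every angiogenic islet sample for both, though by little in III-8024-tumor. Against hyperplastic and normal islets neither was called. Ddit3 differed there by 0.23 and 0.14, and Trib3 by 0.46 and 0.34. The asparagine synthetase gene Asns, another ATF4 target, differed by 0.42 ± 0.14 (adjusted p = 0.0696, and 0.0361 without III-8024-tumor), while the mRNA of Atf4 itself (-0.21 ± 0.10, and called lower without III-8017-tumor, adjusted p then 0.0389) and of Xbp1 (-0.05 ± 0.10) was not called. These are small changes and most rest on AngiogenicI-93. Without it 2 genes were lower and 0 higher. The adjusted p was then 0.0676 for Hspa5, 0.0748 for Pdia4, 0.0773 for Dnajb9, 0.105 for Ddit3 and 0.161 for Trib3. Without Angiogenic2006, 5 were lower and 0 higher (0.0615 for Ddit3 and 0.097 for Trib3), and without Angiogenic2007 or II-649-tumor 5 were lower and 1 higher. Without III-8017-tumor 11 were lower and 1 higher, and with the title code as a block 3 were lower and 0 higher. Trib3 also lost its call without Angiogenic2007 (0.1), II-649-tumor (0.0736) or III-8017-tumor (0.0807). Pdia6, Dnajc3 and Sdf2l1 lost their calls without AngiogenicI-93 (0.15, 0.154 and 0.174), and without most other single arrays. For Pdia4, the less bright of its probe sets gave 0.11 in place of -0.47.

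**Figure D2:**
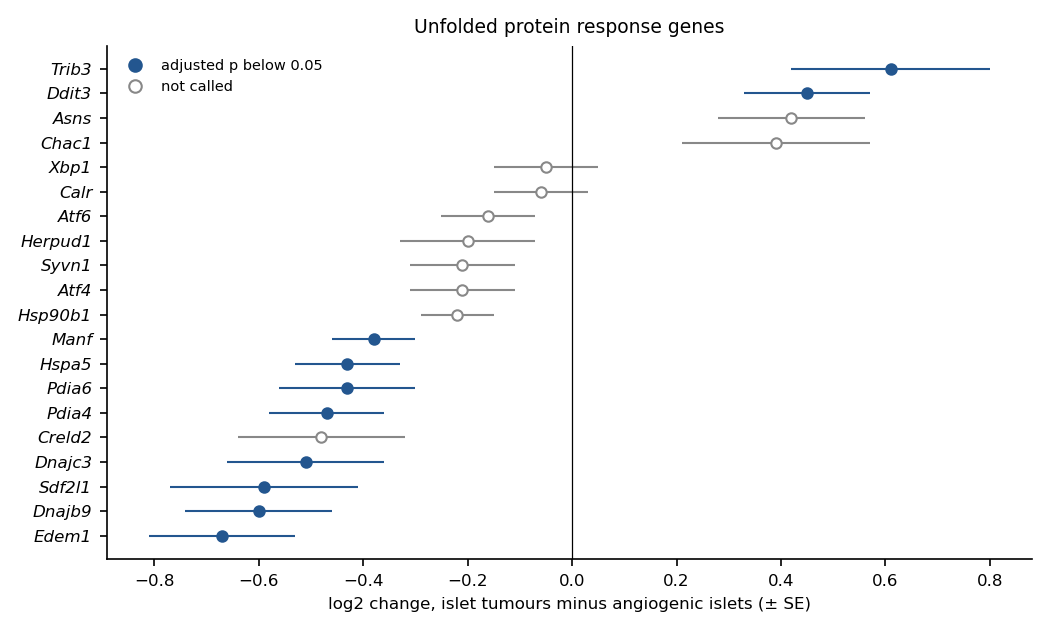
Log2 change from angiogenic islets to islet tumours (x axis, points with SE bars) for the 20 measured unfolded protein response genes, filled where the adjusted p was below 0.05. Trib3 and Ddit3 lie on the right at 0.61 and 0.45, and the folding genes on the left down to -0.67 for Edem1.

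The endoplasmic reticulum stress element (CCAAT, then any 9 bases, then CCACG), through which ATF6 raises chaperone genes, is shown with its fixed letters in capitals in the 250 bases before Hspa5 (chr2:34771840-34772089), Dnajc3 (chr14:118937682-118937931) and Pdia6 (chr12:17266339-17266588). All are on the plus strand, from RefSeq, GRCm38.p6.
Hspa5: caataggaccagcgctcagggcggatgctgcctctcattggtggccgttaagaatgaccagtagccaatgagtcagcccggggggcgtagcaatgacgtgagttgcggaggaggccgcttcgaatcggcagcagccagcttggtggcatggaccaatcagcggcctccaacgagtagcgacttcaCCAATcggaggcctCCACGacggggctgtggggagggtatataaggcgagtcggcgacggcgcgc
Dnajc3: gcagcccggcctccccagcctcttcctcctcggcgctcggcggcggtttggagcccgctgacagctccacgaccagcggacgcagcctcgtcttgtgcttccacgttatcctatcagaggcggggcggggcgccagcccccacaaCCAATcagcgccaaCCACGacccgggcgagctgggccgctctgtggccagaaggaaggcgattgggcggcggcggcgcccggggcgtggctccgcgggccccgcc
Pdia6: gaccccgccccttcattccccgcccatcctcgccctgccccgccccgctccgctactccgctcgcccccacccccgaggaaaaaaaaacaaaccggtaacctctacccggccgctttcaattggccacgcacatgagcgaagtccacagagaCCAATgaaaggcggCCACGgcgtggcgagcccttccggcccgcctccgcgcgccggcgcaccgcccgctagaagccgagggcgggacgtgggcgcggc
Searched on both strands, the element was found before 7 of the 18 genes of the response with a promoter in the table (38.9%) and before 35 of all 27025 genes (0.13%). Of the 7, these 3 were called lower and the other 4 were not called. Neither Ddit3 nor Trib3 held it in this window.

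Connective tissue genes fell across the whole list. Of 24 measured genes of fibroblasts and interstitial matrix 24 fell, with a median of -1.04 (20 to 24 with any array left out, and 21 with the title code as a block). For 22 of them every tumour lay below every islet sample, against 6.76% of all genes. Col3a1, a fibrillar collagen chain, read 11.04, 11.27 and 11.10 in angiogenic islets and 9.27, 9.25, 9.63, 9.83 and 9.64 in tumours (-1.62 ± 0.23, adjusted p = 0.00016). Lumican (Lum), a proteoglycan that spaces collagen fibrils, read 8.96, 8.75 and 8.48 against 7.20, 6.08, 6.45, 6.81 and 6.84 (-2.05 ± 0.26, adjusted p = 3.59e-05). Decorin (Dcn), of the same kind, read 10.87, 10.31 and 10.28 against 9.19, 7.55, 8.02, 8.42 and 8.56 (-2.14 ± 0.28). II-649-tumor was the lowest tumour for all 3 genes.

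Collagen I chains Col1a1 (-1.35 ± 0.23) and Col1a2 (-1.41 ± 0.25), collagen VI chains Col6a1 (-1.18 ± 0.10) and Col6a3 (-1.16 ± 0.13), and the matricellular genes Thbs4 (-1.81 ± 0.28) and Postn (-1.70 ± 0.30) fell with them. Pdgfra, the growth factor receptor that marks fibroblasts, read 8.38, 8.17 and 7.73 against 7.11, 6.32, 6.65, 6.96 and 6.71 (-1.34 ± 0.19). Fibronectin (Fn1) fell by 0.87 ± 0.19 (adjusted p = 0.00655, and 0.0514 without Angiogenic2006). The angiogenic islets were the high point of most of these genes. Against hyperplastic islets 3 of the 24 genes were higher in tumours and 0 lower (background 2.73% and 4.23%), and against normal islets 15 were higher and 0 lower (background 13% and 16.1%). Fn1 averaged 7.34 ± 0.60 in normal, 8.17 ± 0.21 in hyperplastic, 10.44 ± 0.19 in angiogenic islets and 9.57 ± 0.27 in tumours.

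**Figure D3:**
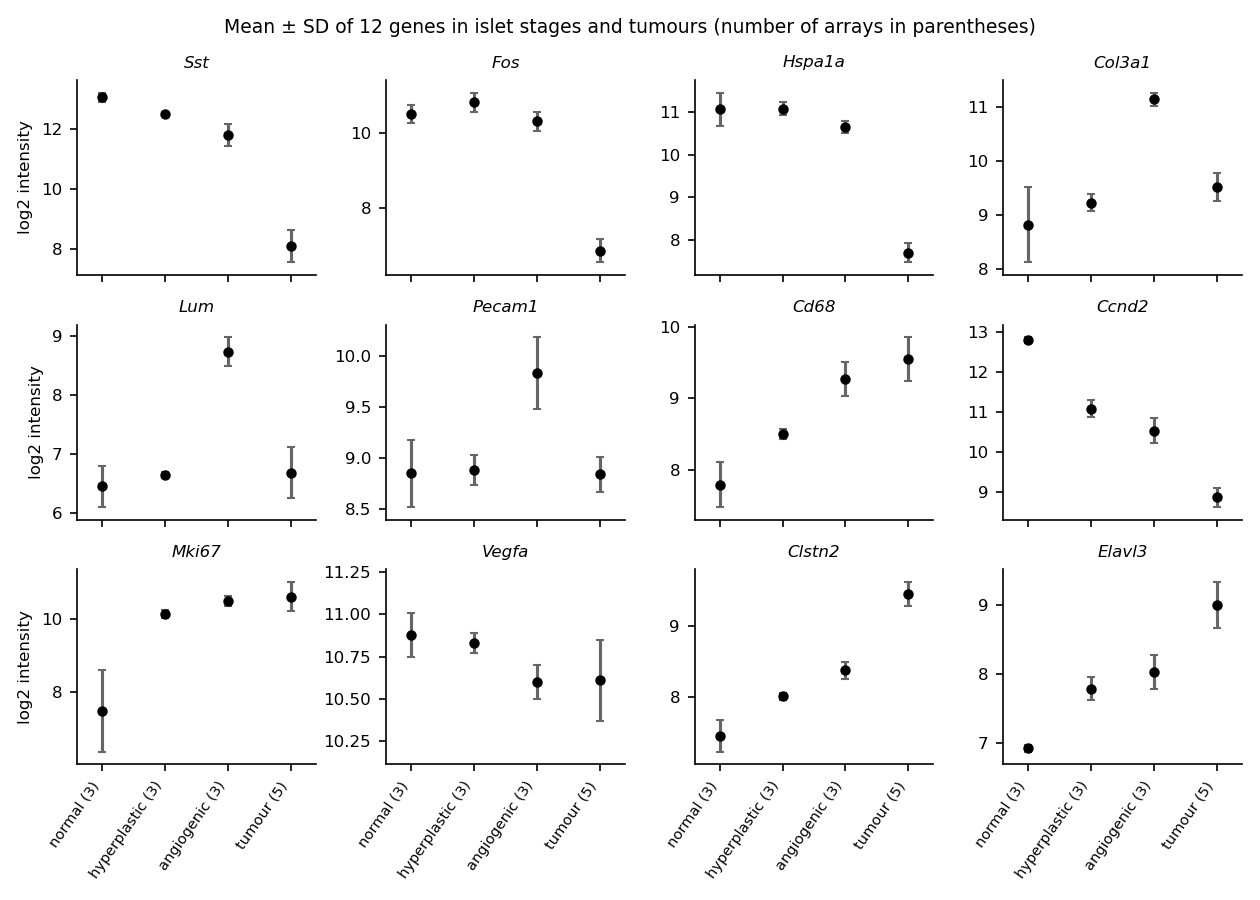
Mean log2 intensity with SD (y axis) of 12 genes in normal, hyperplastic and angiogenic islets (3 arrays each) and islet tumours (5 arrays). Sst, Fos, Hspa1a and Ccnd2 are lowest in tumours, Col3a1, Lum and Pecam1 peak in angiogenic islets, Clstn2 and Elavl3 are highest in tumours, and Vegfa and Mki67 differ little between the last groups.

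Basement membrane genes followed. Of 14 measured, 11 fell and 0 rose, with a median of -0.60 (9 to 11 with any array left out). The collagen IV chains of vessel and epithelial basement membranes, Col4a1 and Col4a2, are transcribed from a shared promoter and moved alike. Col4a1 read 9.83, 9.92 and 9.88 against 8.91, 9.22, 9.33, 9.15 and 9.16 (-0.72 ± 0.10, adjusted p = 0.000113), and Col4a2 changed by -0.64 ± 0.10. The laminin chain gene Lama2, of muscle and mesenchyme, read 8.27, 8.18 and 8.04 against 6.84, 6.87, 6.90, 6.77 and 6.61 (-1.36 ± 0.17). Perlecan (Hspg2, -0.58 ± 0.10) and Col15a1 (-0.79 ± 0.12) fell as well. Of 16 integrin genes 4 fell (2 without AngiogenicI-93, Angiogenic2006, III-8017-tumor or III-8024-tumor), with a median of -0.29. Itga1, the collagen-binding chain, read 9.57, 9.47 and 9.28 against 8.30, 8.67, 8.69, 8.56 and 8.48 (-0.90 ± 0.16), and the fibronectin-binding chain gene Itga5 changed by -0.50 ± 0.10. Their common partner Itgb1 differed by -0.30 ± 0.11 (adjusted p = 0.0823, and 0.0292 with the title code as a block, at -0.49).

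Matrix proteases and their inhibitors were less uniform. Of 21 measured genes 6 fell and 0 rose, with a median of -0.33 (3 lower without Angiogenic2006). Adamts1, a secreted protease that trims proteoglycans, read 8.89, 8.48 and 8.80 against 6.88, 7.69, 7.41, 7.43 and 7.07 (-1.43 ± 0.18, adjusted p = 4.21e-05). The membrane collagenase gene Mmp14 fell by 0.78 ± 0.16, and the inhibitor gene Timp1 by 0.68 ± 0.18 (adjusted p = 0.0174, and 0.127 without Angiogenic2006). Mmp9, the gelatinase linked to the release of VEGF in this model, read 6.10, 6.31 and 6.11 against 6.16, 6.01, 5.88, 5.74 and 5.94 (adjusted p = 0.0962, and 0.0344 without I-9811-tumor). Cathepsin B (Ctsb), a lysosomal protease of macrophages and tumour cells, differed by -0.02 ± 0.13.

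Endothelial genes were lower in tumours, with counts that leaned on AngiogenicI-93. Of 18 measured genes 12 fell and 0 rose, with a median of -0.53, and without that array 5 were called. Pecam1, the junction protein used to stain vessels, read 10.20, 9.81 and 9.49 in angiogenic islets and 8.64, 9.0, 8.89, 8.69 and 8.99 in tumours (-0.99 ± 0.16, adjusted p = 0.000489). Cdh5, the endothelial cadherin, read 9.55, 9.31 and 9.10 against 8.71, 8.84, 8.69, 8.52 and 8.84 (-0.60 ± 0.12, adjusted p = 0.00247). AngiogenicI-93 was the highest array for both genes, and no tumour reached the lowest islet sample. Robo4 (-0.52 ± 0.09) and the factor gene Erg (-0.47 ± 0.09) fell, and the fenestral diaphragm gene Plvap changed by -0.60 ± 0.17 (adjusted p = 0.034, and 0.224 without AngiogenicI-93, 0.115 without Angiogenic2006, 0.0785 without I-9811-tumor, 0.0532 without III-8017-tumor and 0.0559 without III-8024-tumor). Kdr, the main VEGF receptor, read 9.97, 9.74 and 9.85 against 9.18, 9.79, 9.41, 9.0 and 9.41, with II-649-tumor among the islets (-0.49 ± 0.16, adjusted p = 0.0636, 0.0214 without II-649-tumor and 0.00377 with the title code as a block, at -0.86).

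The ligand did not differ. Vegfa, the growth factor on which the angiogenic switch of these mice depends, read 10.58, 10.52 and 10.71 in angiogenic islets and 10.46, 11.01, 10.57, 10.42 and 10.61 in tumours (0.01 ± 0.12, adjusted p = 0.964). Of 19 genes of vessel growth factors and tip cells 6 fell and 0 rose, with a median of -0.23, but without AngiogenicI-93 2 were called and without Angiogenic2006 or II-6415-tumor 3. The apelin receptor gene Aplnr, of growing vessel tips, read 8.68, 8.54 and 8.43 against 7.67, 7.94, 7.75, 7.85 and 8.30 (-0.65 ± 0.13, adjusted p = 0.00232). The vessel-stabilising ligand gene Angpt1 fell by 0.65 ± 0.15 (0.107 without AngiogenicI-93 and 0.0552 without Angiogenic2006). Its antagonist Angpt2 (-0.23 ± 0.12) and the tip cell ligand gene Dll4 (-0.10 ± 0.08) were not called.

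Pericytes, the mural cells of small vessels, and smooth muscle were represented by 13 genes, of which 8 fell and 0 rose, with a median of -0.69 (3 without AngiogenicI-93 and 5 without Angiogenic2007). Desmin (Des), a muscle filament that marks islet pericytes, read 7.80, 7.27 and 8.75 against 6.72, 6.90, 6.74, 6.58 and 6.66 (-1.22 ± 0.22, adjusted p = 0.00156). Its spread lay in the angiogenic group, and the tumours read 6.58 to 6.90. Pdgfrb, the receptor that recruits pericytes, read 9.32, 9.33 and 9.14 against 8.52, 8.79, 8.57, 8.52 and 8.49 (-0.69 ± 0.13, adjusted p = 0.00181). Smooth muscle actin (Acta2) read 11.17, 10.92 and 11.45 against 9.79, 10.71, 10.60, 10.07 and 9.82 without being called (adjusted p = 0.0547, but 0.0399 without II-649-tumor and 0.048 without II-6415-tumor). Rgs5, a signalling brake of pericytes, differed by -0.40 ± 0.15 (adjusted p = 0.0928). With the title code as a block Acta2 (-1.62, adjusted p = 0.00843) and Rgs5 (-0.71, adjusted p = 0.00519) were called lower. Against hyperplastic islets Pecam1 in tumours differed by -0.04, while Rgs5 (0.59, adjusted p = 0.0168), Cdh5 (0.40, adjusted p = 0.0419) and Aplnr (0.44, adjusted p = 0.0382) were higher.

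**Figure D4:**
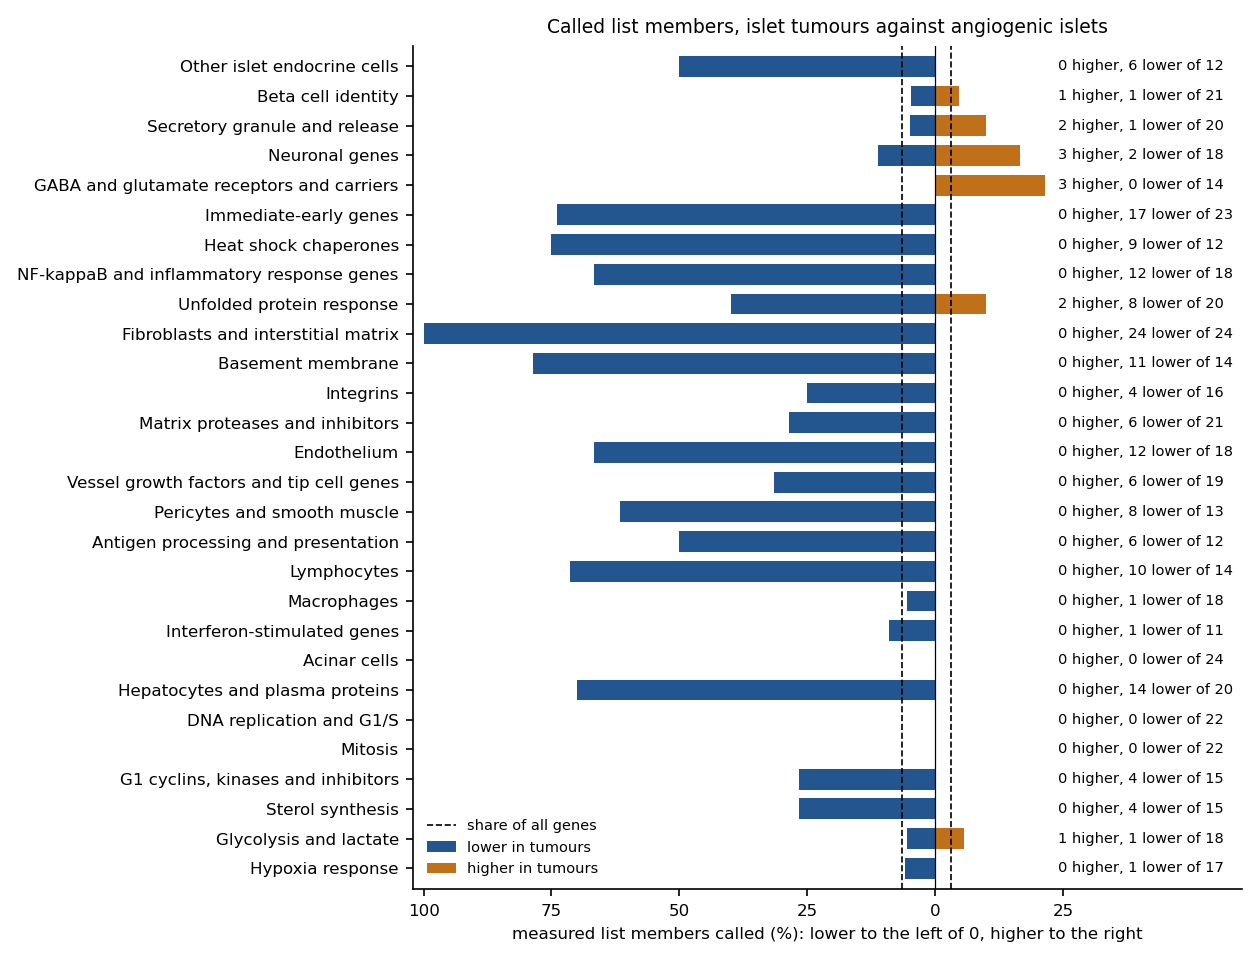
Share of measured members (x axis, %) of 28 gene lists called lower (left) or higher (right) in islet tumours than in angiogenic islets, with the counts printed beside each bar and the share of all genes as dashed lines (6.45% lower, 3.09% higher). Matrix, vessel, immediate-early and heat shock lists reach far to the left, and replication, mitosis and acinar lists have no called member.

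Class II antigen presentation genes were lower in the tumours. Of 12 measured antigen processing and presentation genes 6 fell and 0 rose, with a median of -0.47. Cd74, the invariant chain that escorts class II molecules, read 10.92, 10.83 and 10.16 in angiogenic islets and 8.17, 7.91, 8.84, 8.87 and 9.14 in tumours (-2.05 ± 0.28, 4.14-fold lower, adjusted p = 0.000107). The class II chain genes H2-Aa (-1.84 ± 0.32), H2-Ab1 (-1.94 ± 0.32) and H2-Eb1 (-1.44 ± 0.24) fell with no overlap of the groups. Ciita, the activator of class II genes, read 7.67, 7.55 and 6.36 against 6.54, 6.33, 6.41, 6.36 and 6.47 (-0.77, adjusted p = 0.0128), and H2-DMa, a peptide loading chain, 7.49, 7.40 and 6.78 against 6.53, 6.74, 6.71, 6.58 and 6.89 (-0.53, adjusted p = 0.0274). For both, Angiogenic2007 lay among the tumours, and the call ended without AngiogenicI-93 (0.153 and 0.222) or Angiogenic2006 (0.0996 and 0.135), and that of H2-DMa without I-9811-tumor (0.0587). The class I light chain gene B2m read 12.26, 11.99 and 11.41 against 11.34, 11.66, 11.18, 11.76 and 12.13 (-0.27 ± 0.23, adjusted p = 0.473).

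Lymphocyte genes, of which only those of B cells mark cells that also carry class II, were high in part of the angiogenic group. Of 14 measured, 10 fell, with a median of -1.06, but the list averaged 8.61 in AngiogenicI-93 and 8.11 in Angiogenic2006 against 6.44 in Angiogenic2007 and 6.31 to 6.69 in the tumours. The B cell gene Ms4a1, coding for CD20, read 9.19, 9.0 and 5.10 against 5.31, 5.19, 5.24, 4.96 and 5.34 (adjusted p = 0.00977, but 0.121 without AngiogenicI-93 and 0.0857 without Angiogenic2006). Cd79a, of the B cell receptor, read 8.09, 7.92 and 5.64 against 5.17, 5.10, 5.18, 5.10 and 5.64, and Jchain, of secreted antibody, 9.44, 8.14 and 6.43 against 5.58, 5.46, 5.0, 5.96 and 6.28 (adjusted p = 0.00835, and 0.11 without AngiogenicI-93). Without AngiogenicI-93 1 member of the list was called and without Angiogenic2006 2. In Angiogenic2007, where the list was at the tumours' level, Cd74 was still 10.16, above all tumours. The part of lymphocytes in the other falls was not tested.

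Macrophage genes did not follow the class II genes. Of 18 measured 1 fell and 0 rose, against 6.45% and 3.09% of all genes. The median was -0.09 (4 lower without Angiogenic2007 and 2 without III-8017-tumor). The member that fell was Cd14, the endotoxin co-receptor, which read 6.77, 6.58 and 6.53 against 6.10, 5.91, 5.96, 6.22 and 6.18 (-0.55 ± 0.10, adjusted p = 0.00133). The lysosomal macrophage marker Cd68 read 9.33, 9.47 and 9.0 against 9.55, 9.40, 9.17, 9.61 and 10.00 (0.28 ± 0.17, adjusted p = 0.311). The growth factor receptor gene Csf1r (-0.37 ± 0.20), the complement gene C1qa (-0.24 ± 0.17) and the mannose receptor gene Mrc1 (-0.36 ± 0.26) were not called, and for all of these III-8024-tumor was the highest tumour. Tumours were nearer to angiogenic islets than to earlier stages for this list: 10 of 18 were higher in them than in hyperplastic and 13 than in normal islets, where 2.73% and 13% of all genes were higher. Cd68 differed by 1.05 and 1.75 there. Of 12 neutrophil and mast cell genes 0 were called.

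Interferon-stimulated genes were set by a single tumour. The 11 measured genes averaged 8.0, 7.82 and 7.75 in angiogenic islets, 7.10 to 7.30 in 4 tumours and 8.42 in III-8024-tumor. Ifit1, an antiviral RNA-binding protein, read 7.98, 7.74 and 7.90 against 7.01, 7.14, 7.32, 7.16 and 8.86 (-0.37 ± 0.29, adjusted p = 0.443). With all tumours 1 gene fell, Irf1 (-0.50 ± 0.12, adjusted p = 0.00904), whose call ended without AngiogenicI-93 (0.0689) and whose less bright probe set gave 0.13. Without III-8024-tumor 9 of 11 were lower, Ifit1 among them (adjusted p = 0.0132).

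Genes of tissues outside the islet told of differences between samples. Of 24 acinar genes, which code for digestive enzymes and their factors, 0 were called, with a median of 0.33. The list averaged 9.56 in Angiogenic2007 and 10.38 to 11.03 on the other 7 arrays, and the carboxypeptidase gene Cpa1 read 12.99, 13.00 and 11.83 against 12.81, 12.68, 12.91, 12.97 and 12.83. The acinar factor gene Ptf1a read 5.82 to 6.35 throughout. Of 20 hepatocyte and plasma protein genes 14 fell, with a median of -1.05. The list averaged 7.06, 8.08 and 8.70 in angiogenic islets and 6.57 to 6.82 in tumours, and albumin (Alb) read 8.02, 11.30 and 11.81 against 7.80, 6.50, 6.04, 8.24 and 6.72 (-3.32 ± 0.82, adjusted p = 0.0133, but 0.0815 without Angiogenic2006 and 0.079 without Angiogenic2007). Without Angiogenic2006 9 of the list were lower, without Angiogenic2007 7, and with the title code as a block 3. Cyp2e1, a liver oxidase, read 5.65, 7.76 and 8.76 against 4.96 to 5.48 in tumours. With the title code as a block neither Alb (-2.28, adjusted p = 0.143) nor Cyp2e1 (-1.41, adjusted p = 0.0893) was called.

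**Figure D5:**
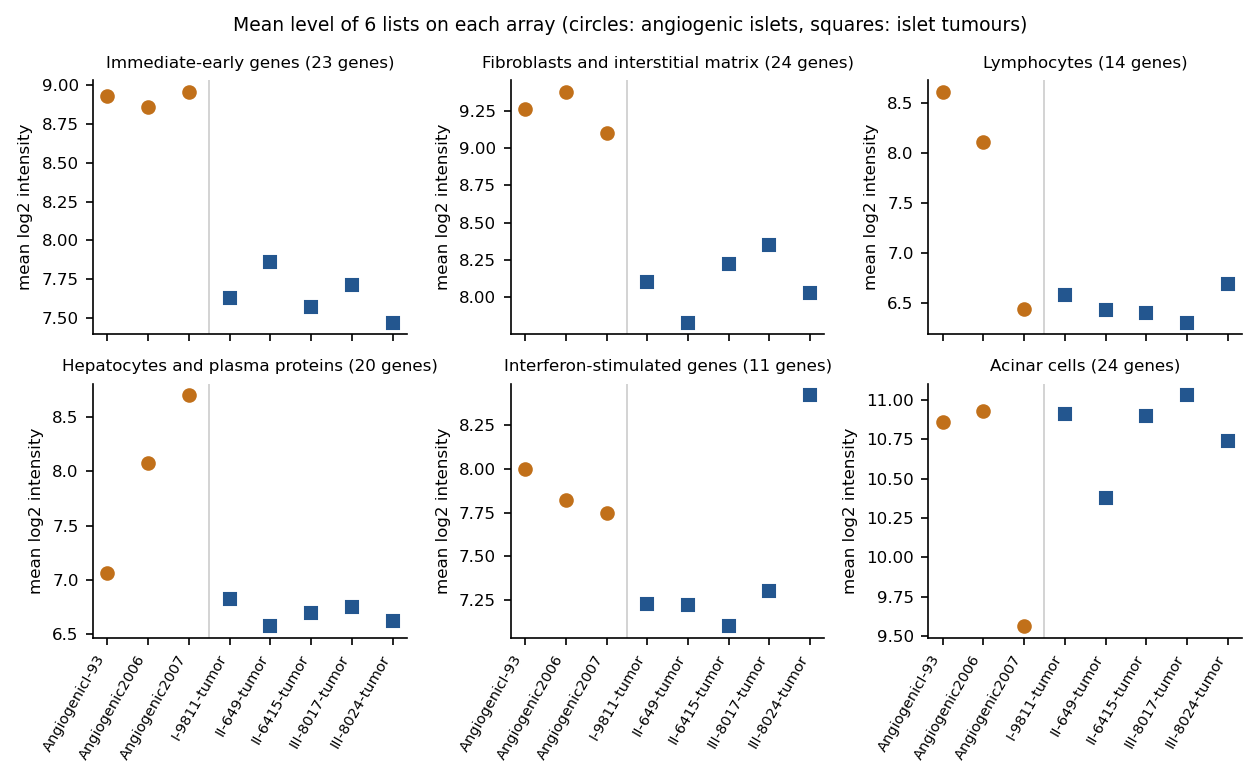
Mean log2 intensity (y axis) of the measured genes of 6 lists on each of the 8 arrays (x axis, circles for angiogenic islets and squares for islet tumours). Immediate-early and fibroblast lists separate the groups, lymphocyte genes are high in AngiogenicI-93 and Angiogenic2006, hepatocyte genes in Angiogenic2006 and Angiogenic2007, interferon genes in III-8024-tumor among tumours, and acinar genes are low in Angiogenic2007.

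Some epithelial and absorptive genes fell with less unevenness, with SDs over the angiogenic arrays from 0.40 (Ugt2b34) to 0.65 (Tspan8) against 2.06 for Alb. Tspan8, an epithelial tetraspanin, read 8.56, 7.27 and 7.78 against 5.61, 5.48, 5.27, 5.80 and 5.51 (-2.34 ± 0.20, adjusted p = 2.95e-07). Ugt2b34, which attaches glucuronic acid to steroids and drugs, read 8.17, 7.36 and 7.75 against 5.48, 5.52, 5.59, 5.31 and 5.48 (-2.28 ± 0.15, adjusted p = 4.38e-09). The fatty acid-binding protein gene Fabp1 read 7.06, 6.81 and 7.98 against 4.82, 4.55, 4.53, 4.78 and 4.61 (-2.63 ± 0.27), and villin (Vil1), of brush borders, changed by -1.18 ± 0.18. The tumours were tightly grouped for each but Vil1, where II-649-tumor read 6.75, near Angiogenic2006 at 6.86. Normal islets were higher still for 3 of the genes, with 9.72 ± 0.26 for Tspan8, 10.17 ± 0.30 for Ugt2b34 and 10.11 ± 0.12 for Vil1 (SD, n = 3). For these genes angiogenic islets lay between normal islets and tumours. Fabp1 differed from them, at 6.20 ± 0.59 in normal and 7.28 in angiogenic islets, and its tumour values were near the array's lower end. In the liver metastases of the series Fabp1 averaged 7.67 and Ugt2b34 8.18, and the part of liver tissue in their falls was not tested. Of 16 ductal and other epithelial genes 3 fell (6 without III-8017-tumor, and 5 with the title code as a block), with a median of -0.33. The duct keratin gene Krt19 read 9.05, 7.61 and 7.91 against 6.55, 6.53, 6.45, 7.31 and 6.33 (adjusted p = 0.00808, and 0.105 without AngiogenicI-93). The adhesion genes Epcam (-0.16 ± 0.24) and Cdh1 (-0.56 ± 0.24) were not called, but with the title code as a block Cdh1 was called, at -1.14 (adjusted p = 0.0277). Of 8 adipocyte genes 1 fell, the lipid carrier gene Fabp4 (-1.24 ± 0.19), which endothelium also expresses, and the fat hormone gene Adipoq was near the array's lower end at 4.94 to 5.31. Of 5 red cell genes 0 were called.

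Proliferation genes were as high in angiogenic islets as in tumours. Of 22 DNA replication genes and 22 mitosis genes 0 were called, with medians of 0.07 and 0.12, while all 22 of each were higher in tumours than in normal islets (background 13%, and 29% called in either direction). Mki67, the antigen of dividing cells, read 10.35, 10.55 and 10.58 against 10.72, 10.70, 9.94, 10.67 and 11.02 (0.12 ± 0.32, adjusted p = 0.847). The topoisomerase gene Top2a, the helicase gene Mcm6 and the S phase cyclin gene Ccne1 differed by 0.09 ± 0.31, 0.05 ± 0.18 and 0.18 ± 0.13. II-6415-tumor was the lowest of the tumours for Mki67 and Top2a.

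The D cyclins were among the few cycle genes called. These proteins couple growth signals to the retinoblastoma protein, which the viral antigen binds. Of 15 genes of G1 cyclins, kinases and inhibitors 4 fell and 0 rose, with a median of -0.02 (2 lower without AngiogenicI-93 or Angiogenic2006). Cyclin D2 (Ccnd2), the main D cyclin of beta cells, read 10.90, 10.31 and 10.43 in angiogenic islets and 8.60, 8.89, 8.86, 8.79 and 9.27 in tumours (-1.66 ± 0.18, 3.16-fold lower, adjusted p = 6.53e-06). Cyclin D1 (Ccnd1) read 9.33, 9.13 and 8.86 against 8.13, 8.41, 8.42, 8.08 and 8.54 (-0.79 ± 0.11, adjusted p = 0.000169). No tumour reached an islet sample for either. Ccnd3 (-0.46 ± 0.11) and the kinase gene Cdk6 (-0.57 ± 0.14) fell as well, calls that ended without AngiogenicI-93 (0.0956 and 0.11) or Angiogenic2006 (0.061 and 0.0962), and the partner kinase gene Cdk4 differed by 0.02 ± 0.09. Ccnd2 descended over the stages, from 12.79 ± 0.07 in normal and 11.09 ± 0.22 in hyperplastic islets.

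Death and stress genes changed in single members. Of 13 genes of the p53 response 2 fell (1 without AngiogenicI-93, Angiogenic2006, II-649-tumor, II-6415-tumor or III-8024-tumor), among them the death receptor gene Fas, which read 7.70, 6.96 and 6.80 against 6.37, 6.42, 6.48, 6.33 and 6.37 (-0.76 ± 0.15, adjusted p = 0.00281). Of 10 Bcl2 family genes 1 fell (2 without Angiogenic2007), the survival gene Mcl1 (-0.58 ± 0.13, adjusted p = 0.00666, and 0.0741 without AngiogenicI-93). Of 17 hypoxia response genes 1 fell (2 without II-6415-tumor or III-8017-tumor), the growth brake Ddit4, which read 8.98, 8.80 and 8.59 against 7.68, 7.63, 7.70, 8.16 and 7.74 (-1.01 ± 0.15, adjusted p = 0.000169). Car9, a carbonic anhydrase used as a hypoxia marker, differed by -0.14 ± 0.12.

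The share of glycolysis and lactate genes called was near that of all genes. Of 18 measured 1 rose and 1 fell, with a median of -0.04, against 3.09% and 6.45% of all genes. The enolase gene of neurons and neuroendocrine cells, Eno2, read 8.35, 8.20 and 8.48 against 8.86, 9.27, 8.99, 9.18 and 8.94 (0.70 ± 0.15, adjusted p = 0.00499). Its level in tumours differed from that in normal islets by 0.09. Lactate dehydrogenase A (Ldha), normally kept low in beta cells, read 9.86, 9.70 and 9.22 against 8.60, 8.69, 8.51, 9.0 and 8.79 (-0.88 ± 0.25, adjusted p = 0.0328), and its call ended without AngiogenicI-93 (0.194), Angiogenic2006 (0.113), I-9811-tumor (0.0602), II-649-tumor (0.0545) or II-6415-tumor (0.0646). The hexokinase gene Hk1 differed by -0.04 ± 0.08 and the lactate carrier gene Slc16a1 by -0.22 ± 0.14.

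Of 15 sterol synthesis genes 4 fell (2 without AngiogenicI-93), with a median of -0.21, where 6.45% of all genes fell. Insig1, which holds back the sterol factor SREBP, read 10.20, 10.09 and 10.15 against 9.22, 9.62, 9.48, 9.79 and 9.14 (-0.70 ± 0.11, adjusted p = 0.000528), and the oxidase gene Msmo1 changed by -0.46 ± 0.09 (adjusted p = 0.00186). The desaturase gene Scd1, which makes oleic acid, read 8.48, 8.64 and 7.90 against 6.72, 6.01, 6.56, 6.53 and 5.93 (-1.99 ± 0.28, adjusted p = 0.000109). It was the 1 gene called of 11 of fatty acid synthesis, where 9.54% of all genes were called. The synthase gene Fasn differed by 0.28 ± 0.10 in the other direction (adjusted p = 0.0758, and 0.021 without I-9811-tumor).

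Growth factor and developmental genes changed in scattered members. Of 16 genes of the insulin-like growth factor axis 2 fell (4 without II-6415-tumor), with a median of -0.12. Igf2, the survival factor that hyperplastic RT2 islets switch on, read 10.66, 10.75 and 10.93 against 11.22, 11.20, 10.62, 11.21 and 10.91 (0.25 ± 0.32, adjusted p = 0.659), while the binding protein gene Igfbp5 read 8.77, 8.57 and 8.41 against 7.43, 7.78, 7.55, 7.71 and 7.35 (-1.02 ± 0.14, adjusted p = 0.000109). Of 15 imprinted genes 3 fell, including Mest (-1.07 ± 0.21) and Sgce (-0.98 ± 0.15). The imprinted gene Dlk1 read 8.51, 8.70 and 8.17 against 10.23, 9.33, 9.72, 10.22 and 8.13, where III-8024-tumor alone stayed with the islets, and it was not called (adjusted p = 0.201).

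Of 11 EGF receptor family genes, the ligand Hbegf fell by 0.47 ± 0.08 (adjusted p = 0.000665) and Nrg1 rose by 0.51 ± 0.13 (adjusted p = 0.0158, and 0.112 without AngiogenicI-93). Of 21 TGF-beta and activin genes 4 fell (1 without AngiogenicI-93), including the ligand Tgfb3, at 7.98, 7.92 and 7.54 against 7.16, 6.94, 7.08, 7.18 and 7.11 (-0.72 ± 0.12, adjusted p = 0.000613). Of 20 axon guidance genes 5 fell (2 without AngiogenicI-93 and 3 without Angiogenic2006), with a median of -0.14. The semaphorin Sema3c read 7.72, 7.38 and 7.50 against 6.25, 6.49, 6.43, 6.66 and 5.96 (-1.18 ± 0.14, adjusted p = 2e-05), and Slit2, a repellent of axons and vessels, changed by -0.93 ± 0.21 (adjusted p = 0.0069). Gata6, a factor of early pancreas and of mesenchyme, read 8.0, 7.76 and 7.85 against 7.20, 6.94, 7.07, 7.08 and 7.10 (-0.79 ± 0.10, adjusted p = 3.6e-05). Vimentin (Vim), a filament of mesenchymal cells, fell by 1.11 ± 0.20 (adjusted p = 0.0012). Fibroblast and endothelial genes were high in all the angiogenic islets too, lymphocyte genes only in AngiogenicI-93 and Angiogenic2006. The part of those cells was not tested. Of 12 genes mutated in human pancreatic neuroendocrine tumours 1 was called, Tsc1 (0.22 ± 0.06, adjusted p = 0.0285, but 0.112 without AngiogenicI-93, 0.145 without Angiogenic2006 and 0.051 without II-6415-tumor), and Men1 differed by -0.15 ± 0.08 (adjusted p = 0.295, and 0.0252 without III-8017-tumor).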

How the data were processed

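Total RNA was hybridised to Affymetrix Mouse Gene 1.0 ST arrays, and the authors deposited 1 value per probe set and array, processed with aroma.affymetrix per the series' design text. The deposited values are on a log2 scale, as their range shows. Its version, background correction, normalisation and summarisation are not stated there. Arrays carry no read depth, so their number limits the precision.

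Of 35511 probe sets, 21789 have 1 gene symbol in the platform annotation, 1621 have several and were left out, and 12101 are not listed there. Where probe sets shared a gene (999 genes), only the brightest on average was used, which left 19938 genes. limma 3.58.1 in R 4.3.3 was fitted to all 22 arrays with 1 mean per group (16 residual degrees of freedom), and p-values were adjusted by Benjamini-Hochberg over all genes, with a threshold of 0.05. The script was tested on simulated data.

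The naming rule took the 15 largest rises and falls among called genes, passing over predicted genes, olfactory and vomeronasal receptors and small RNAs. From each of 55 lists it also took the key members and at most 6 of lowest adjusted p (871 of 941 entries measured). It gave 490 genes, and the results above name 190, picked as each account needed them. Dusp1, Pdia6, Dnajc3, Sdf2l1, Trib3 and Asns lie outside that rule and were chosen after their values were seen. The comparison and the lists were chosen with earlier results of these data known. Alternatives were the arrays fitted, array scaling, a filter on dim genes, the probe set kept, the variance model, the title code as a block and leaving out each array. The title codes (I, II, III, 2006, 2007) have no stated meaning.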

Additional observations from a re-analysis of the deposited data

Results flagged for a closer look

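Among the 190 named genes, 19 had 1 of the 5 tumour arrays far from the other 4, by a gap test that chance passes in about 1 of 20 groups. III-8017-tumor held 8 of them. It was low for the Y-linked genes Eif2s3y (7.77, against 9.37 to 9.60 in the other tumours), Kdm5d (6.88, against 8.03 to 8.27) and Uty (7.34, against 8.62 to 8.98), and for Ghrl (7.19, against 7.48 to 7.55) and Tsc1 (9.17, against 9.24 to 9.26). It was high for Krt19 (7.31, against 6.33 to 6.55), Stmn2 (6.97, against 6.33 to 6.45) and Ddit4 (8.16, against 7.63 to 7.74).

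I-9811-tumor was high for the nerve peptide gene Vip (6.86, against 5.60 to 5.95), Fosb (7.45, against 7.01 to 7.10) and Il6 (4.04, against 3.59 to 3.71), and low for Mcl1 (9.68, against 9.92 to 9.96). II-649-tumor was high for Pdgfrb (8.79, against 8.49 to 8.57) and low for Hspa1a (7.33, against 7.73 to 7.88), Fabp4 (6.35, against 6.61 to 6.68) and Sox10 (7.21, against 7.35 to 7.38). II-6415-tumor was high for Scn8a (8.28, against 8.03 to 8.10). III-8024-tumor was high for the interferon-stimulated gene Ifit1 (8.86, against 7.01 to 7.32) and the B cell gene Cd79a (5.64, against 5.10 to 5.18).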

How the results depend on the processing

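For islet tumour against angiogenic islet, where 1903 genes were called (617 higher, 1286 lower), a fit of only the 8 compared arrays called 768 (177 higher, 591 lower). Median centring called 1176 higher. With the title code as a block, 1328 were higher and 1368 lower, and 1175 of the 1903 kept their call. The groups share only code I, whose meaning is not given, so the codes do not pair the samples. Leaving out the arrays of code I called 687 (152 higher, 535 lower), and leaving out both Angiogenic2006 and Angiogenic2007 called 1047 (147 higher). A change of at least 1 log2 left 243 (11 higher, 232 lower). Leaving out single arrays gave 732 to 2228 called, 169 to 766 higher and 563 to 1462 lower. The lowest counts were without AngiogenicI-93 (732), and without Angiogenic2006 1025 were called (282 higher, 743 lower). With the less bright probe set of a gene, Pdia4 (0.11) and Irf1 (0.13) turned sign. The cause of these shifts was not tested, apart from the fewer samples where arrays were left out. Of 138 named genes that were called, 78 kept their call under every alternative run and 60 lost it under at least 1. The title code block ended the call of 26 named genes and added 6, and the 8 arrays alone ended 33 and added 1. Signal over background is not given in the values used here.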

Other observations

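Per3, among the largest rises, is a clock gene, so 16 measured genes of the circadian clock were looked at, a list chosen after its value was seen. In angiogenic islets and tumours Per3 averaged 7.59 and 8.50 (adjusted p = 2.2e-05, limma), and the clock output factors Dbp 8.24 and 8.82 (0.0139), Tef 8.23 and 8.70 (0.00229) and Hlf 7.17 and 7.73 (0.00576) were higher in tumours as well, as was the repressor Bhlhe41, at 8.87 and 9.53 (0.00447). Arntl, which codes for the activator BMAL1, was lower at 8.51 and 7.63 (0.00181), as were Nfil3, which opposes Dbp, at 8.41 and 7.66 (0.0029), and Bhlhe40, at 7.38 and 6.67 (0.0419). The other 8 genes, Per1, Per2, Cry1, Cry2, Clock, Nr1d1, Nr1d2 and Ciart, were not called. No time of day of sampling was found in the labels.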
